A study of Citrus sinensis and Citrus x aurantiifolia and Citrus x latifolia with 53 samples.

Results

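Roots of grafted Mexican lime trees were compared between a tetraploid and a diploid rootstock after irrigation had been stopped. The comparison holds 8 RNA sequencing libraries of the 53 in the series: the 4 root libraries labelled ML4x WD and the 4 labelled ML2x WD, taken by their titles and not by any measured value. All of them come from trees with a Mexican lime (Citrus aurantiifolia) scion, a citrus grown for its small acid fruit, grafted on Swingle citrumelo 4475, a hybrid that the labels give as Citrus sinensis x Poncirus trifoliata. The rootstock was diploid (2x) in one group and tetraploid (4x) in the other, so the roots carry the genotype of the citrumelo and not that of the lime. The trees had spent 2 years in 40 L pots, and the water-deficit (WD) trees then received no water for 9 days. Irrigated controls (Ctrl, 3 libraries per rootstock) and trees with a Persian lime (Citrus latifolia) scion on the same rootstocks (PL2x and PL4x) serve below as reference, each from its own trees. The series' design calls the tetraploid the homologous form of the diploid seedlings, and whether each rootstock is 1 clone is not said. The Mexican lime scion is 2x and the Persian lime scion 3x. Each library is from a separate tree, and the question put by the design is whether a tetraploid rootstock helps a tree through water deficit.

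A tetraploid plant carries every chromosome in double the diploid number. Its cells are as a rule larger, and tetraploid citrus rootstocks are known for growing more slowly and for often coping better with drought and salt. When soil dries, roots make and transport abscisic acid, accumulate protective proteins and sugars, and slow their growth. Which of the transcripts measured here belong to those processes cannot be said, because the files give only gene identifiers of the kind used for clementine (Citrus clementina) and 0 of 24533 matched the sweet orange gene table at hand. Of the genes that passed the test, 2 are therefore given by identifier and the other two only by their values.

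Total counts ran from 1118899 (ML2x WD 4) to 23763722 (ML4x WD 1). ML2x WD 4 was much shallower than the other 7 libraries, of which the next lowest had 7051006 counts, and it detected 16149 genes where the others detected 19891 to 21895. Each of the 8 libraries correlated better with irrigated Mexican lime roots (Pearson r across genes 0.867 to 0.971) than with irrigated Mexican lime leaves (0.749 to 0.792). Genes over 8-fold enriched in leaves took 0.872% to 1.18% of their counts, against 0.722% to 0.863% in the irrigated roots. These genes were chosen for a low level in the same irrigated roots, so the lower share there follows in part from the choice. The difference in shares therefore cannot show whether droughted roots held more leaf signal. ML4x WD 1, the deepest of the 8, also stood apart: it had the highest correlation with irrigated roots, 0.971, and the results that it moves are also given without it. Markers of single cell types could not be looked up, so a changed proportion of cell types and a changed level per cell cannot be told apart in these whole-root samples.

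Few genes separated the droughted roots by rootstock, and those that did were higher on the tetraploid. Of 20452 genes tested with edgeR's quasi-likelihood test, 4 were called at a Benjamini-Hochberg adjusted p under 0.05 (0.0196% of the genes tested), 4 of them higher and 0 lower in ML4x WD. At an unadjusted p under 0.05 there were 2764 genes (13.5%), 1568 higher (7.67%) and 1196 lower (5.85%). DESeq2 called 83 genes (0.406%), 63 higher and 20 lower, and limma's voom with quality weights called 7, all higher. DESeq2's calls included the 4 genes of edgeR and voom's included 2 of them. The 4 genes shared an adjusted p of 0.0258, and the next gene in order had 0.0663.

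The first of the 4, Ciclev10020909m.g, was at the edge of detection in diploid roots. Its level was 2.91, 2.01, 1.87 and 5.22 CPM (counts relative to the library's total, scaled between libraries by TMM) in ML4x WD 1 to 4. In ML2x WD 1 it had 2 counts, or 0.115 CPM, and it had 0 counts in ML2x WD 2, 3 and 4. The groups did not overlap, and the tetraploid libraries together held 219 counts against 2 in the diploid ones, a ratio of 60.2 per unit of depth (95% exact interval 16.5 to 500.5, counting error only). The fitted log2 fold change of 5.77 ± 0.95 (SE, adjusted p = 0.0258) depends at so few counts on edgeR's prior count.

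The same gene stood apart in the other trees on these rootstocks. It was at 5.06 ± 2.51 CPM in ML4x Ctrl and 0.197 ± 0.172 CPM in ML2x Ctrl roots (SD, n = 3), a log2 fold change of 4.61 ± 0.81 (SE, edgeR adjusted p = 0.00403). It was at 2.96 ± 2.04 CPM in PL4x WD (n = 4) and 0.0496 ± 0.0452 CPM in PL2x WD roots (n = 3), with 252 and 3 counts, a ratio of 60.1 (95% exact interval 20.3 to 293.5, edgeR adjusted p = 0.0215). In irrigated roots under Persian lime it had 210 counts on the tetraploid and 10 on the diploid. There edgeR did not call it (adjusted p = 0.0817), while DESeq2 and voom did (adjusted p = 0.000179 and 0.00945). The ploidy contrast of this gene did not pass the test for a difference between droughted and irrigated trees (log2 1.16 ± 1.27, adjusted p = 0.675) or between the scions (log2 0.06 ± 1.62, adjusted p = 0.993). In leaves, which are lime on either rootstock, it was at 0.192 ± 0.0487 CPM in ML4x WD and 0.297 ± 0.2 CPM in ML2x WD (SD, n = 4, adjusted p = 0.92).

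Ciclev10000483m.g showed another pattern, with similar irrigated levels and separate droughted ones. In ML4x WD 1 to 4 it was at 20.7, 11.1, 20.7 and 30.3 CPM. In ML2x WD 1 to 4 it was at 6.22, 6.51, 4.55 and 4.09 CPM, so that the lowest tetraploid library stood above each diploid one. The log2 fold change was 1.91 ± 0.32 (SE, edgeR adjusted p = 0.0258), or 3.76-fold. Irrigated roots were at 12.9 ± 1.91 CPM in ML4x and 13.6 ± 6.81 CPM in ML2x (SD, n = 3), a log2 difference of -0.08 ± 0.34 (SE, adjusted p = 0.957). Against its own controls the gene fell in ML2x (log2 -1.3 ± 0.33, adjusted p = 0.0054) and stood at 0.69 ± 0.32 in ML4x (adjusted p = 0.158). The difference between the 2 ploidy contrasts was 1.99 ± 0.47 and missed edgeR's threshold over all genes (adjusted p = 0.129), while DESeq2 gave an adjusted p of 0.0141.

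The third and the fourth called genes followed the second. The third was at 29.9, 17.5, 19.4 and 20.9 CPM in ML4x WD 1 to 4 and at 11.9, 8.59, 5.6 and 6.14 CPM in ML2x WD 1 to 4 (log2 1.4 ± 0.24, SE, edgeR adjusted p = 0.0258). The fourth was at 16.4, 11.9, 23.9 and 20.4 CPM in ML4x WD and at 8.13, 6.37, 7.13 and 6.14 CPM in ML2x WD (log2 1.36 ± 0.22, adjusted p = 0.0258). For both, the 4 tetraploid libraries lay above the 4 diploid ones. Their irrigated levels were 23.6 ± 2.37 and 19.5 ± 0.603 CPM in ML4x and 17.4 ± 2.94 and 23.5 ± 4.1 CPM in ML2x, in that order (SD, n = 3). Droughted ML4x roots thus stood near those levels, at 21.9 ± 5.5 and 18.1 ± 5.19 CPM, and droughted ML2x roots well below them, at 8.05 ± 2.86 and 6.94 ± 0.896 CPM (SD, n = 4). Both genes also fell in the mean response of Persian lime roots to water deficit, by 0.63 and 0.64 on the log2 scale. The fourth gene came closest of the 4 to a tested difference between droughted and irrigated contrasts (log2 1.63 ± 0.32, SE, edgeR adjusted p = 0.0898, DESeq2 adjusted p = 0.00155). In leaves its mean was 28.3 ± 6.39 CPM in ML4x WD and 9.81 ± 6.2 CPM in ML2x WD, which did not pass the test (adjusted p = 0.693).

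**Figure D1:**
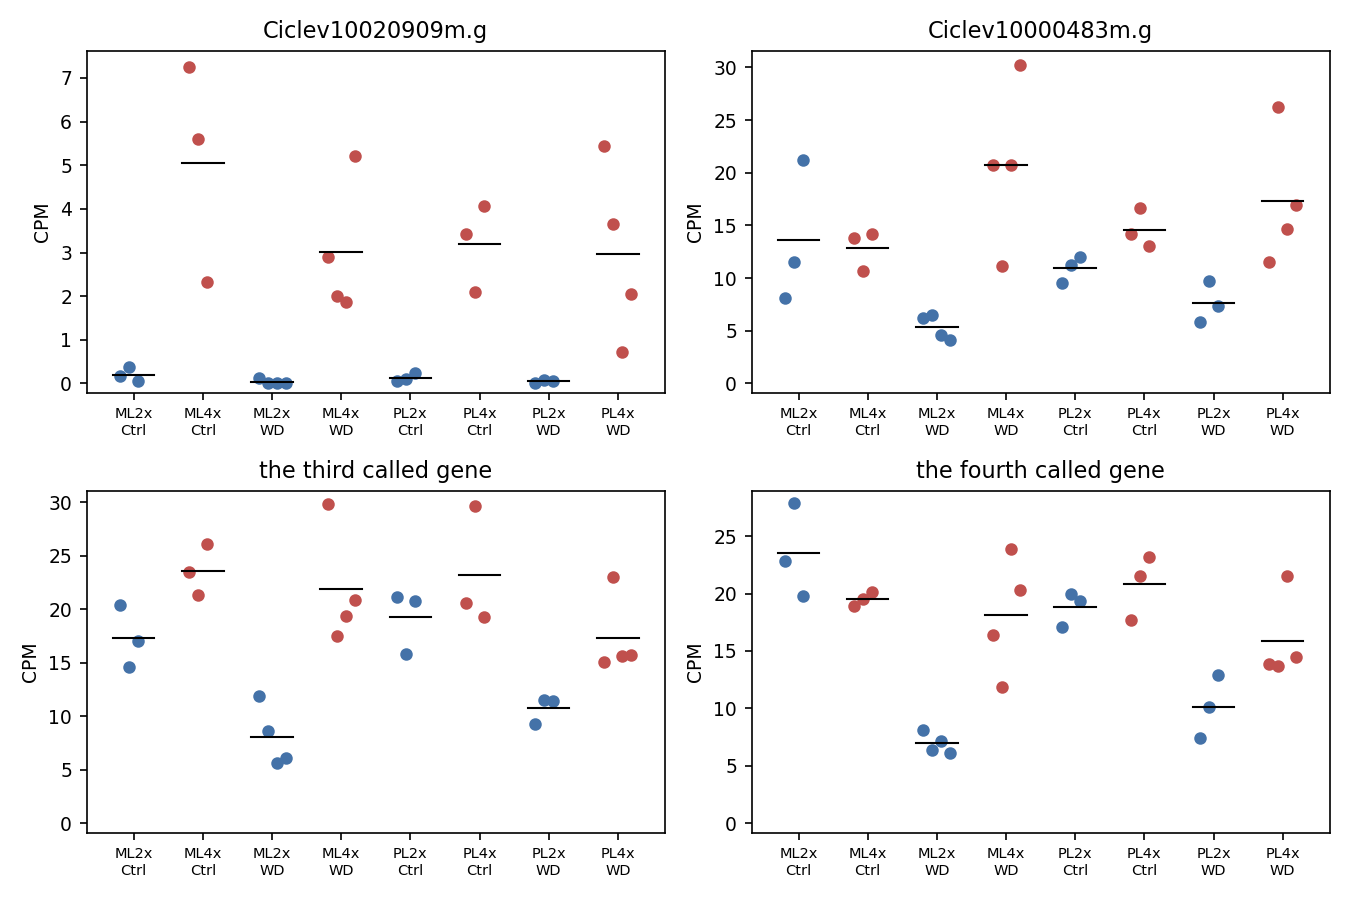
Level (CPM, linear axis) of the 4 called genes in each root library of the 8 groups, with diploid rootstocks in blue, tetraploid ones in red and group means as black lines. Ciclev10020909m.g is high in tetraploid roots of every group, while the other 3 genes are separated most in droughted Mexican lime roots, where the means of Ciclev10000483m.g are 20.7 and 5.34 CPM.

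The calls were lost when most of the 8 libraries were left out singly. Leaving out any 1 of ML2x WD 2, 3 or 4 or of ML4x WD 1, 3 or 4 left 0 calls, leaving out ML2x WD 1 left 1, and leaving out ML4x WD 2 gave 5. A fit of the 8 libraries alone called 0 genes, and so did a fit without ML4x WD 1 and ML2x WD 4. The fitted log2 fold change of Ciclev10020909m.g ran from 5.21 to 8.8 over the libraries left out in turn, the highest without ML2x WD 1, when the diploid libraries left had 0 counts, so that this value is no measure of size. Of the other called genes Ciclev10000483m.g stayed between 1.67 and 2.11 on the log2 scale, the third gene between 1.21 and 1.68 and the fourth between 1.2 and 1.51.

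The genes just short of the threshold had like patterns. The fifth gene in order of p was at 17.3 CPM in ML4x WD and 5.09 CPM in ML2x WD roots, from irrigated means of 10.3 and 11.5 CPM (edgeR adjusted p = 0.0663). The sixth was at 36.4 and 13.8 CPM, from 24.9 and 26.4 CPM (adjusted p = 0.0933). The seventh, at 2.75 and 0.23 CPM, already differed in irrigated roots, at 3.73 and 0.198 CPM (adjusted p = 0.124). These genes did not pass the test.

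To place the contrast along the response to drought, genes were sorted by their behaviour in Persian lime roots, whose libraries take no part in it. Over the mean of PL2x and PL4x, 6377 genes were called under water deficit (31.2% of the genes tested), 3116 that rose (15.2%) and 3261 that fell (15.9%). The genes that fell there were mostly higher in ML4x WD than in ML2x WD: 2492 of the 3261 had a positive fold change, or 76.4% against 53.5% of all genes, and their median was 0.42 on the log2 scale against 0.04 for all genes. Of them 2 passed edgeR's test as higher and 0 as lower, and at an unadjusted p under 0.05 there were 474 higher (14.5%) and 46 lower (1.41%). The genes that rose in Persian lime leaned the other way, with 2143 of 3116 lower in ML4x WD (68.8% against 46.5% of all genes) and a median of -0.13. None of them passed edgeR's adjusted test in either direction, and 280 were lower (8.99%) and 43 higher (1.38%) at an unadjusted p under 0.05, with 6 lower and 5 higher by DESeq2. These are counts over correlated genes and not a test of the lists.

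Complete separation of the 2 groups followed the same division. The 4 tetraploid libraries stood above the 4 diploid ones for 553 genes (2.7% of those tested) and below them for 342 (1.67%). Among the genes that fell in Persian lime these counts were 118 (3.62%) and 11 (0.337%), and among the genes that rose they were 26 (0.834%) and 110 (3.53%). With the 3 libraries ML4x WD 2 to 4 alone against ML2x WD, an alternative chosen after seeing the data, 734 genes stood above (3.59%) and 458 below (2.24%). Of the genes that fell 118 (3.62%) then stood above and 38 (1.17%) below, and of those that rose 90 (2.89%) and 112 (3.59%). On the same scaling such counts cannot fall when a library is left out, so each is to be read beside the share of all genes and not beside the count with 4 libraries. Across all 20452 genes the ploidy contrast and the Persian lime response had a Pearson r of -0.46, which was -0.000274 over 20425 genes when ML4x WD 1 was left out. The 2 contrasts have no library in common, although one fit and one set of scaling factors cover both, and genes are not independent of each other.

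Both groups stood far from their irrigated roots in these genes. Genes that fell in Persian lime had a median level of 17.3 CPM in ML2x Ctrl and 13.7 CPM in ML4x Ctrl roots, and of 3.44 CPM in ML2x WD and 5.06 CPM in ML4x WD roots. Of the 3261 genes, 1081 averaged under 1 CPM in ML2x WD and 830 in ML4x WD. Genes that rose had medians of 27.5 and 28.6 CPM in irrigated and 51.6 and 47.4 CPM in droughted roots, in the order ML2x, ML4x. The shift between rootstocks was therefore small beside the response to drought itself.

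The shift rested largely on 1 library. A water-deficit score was computed for each library by projecting it on the Persian lime response, with the mean of Persian lime controls at 0% and of Persian lime WD roots at 100%. The scores were 52, 114.5, 125.7 and 100.4% in ML4x WD 1 to 4 and 95, 129.4, 129 and 124.4% in ML2x WD 1 to 4. ML4x WD 1 lay about midway between irrigated and droughted roots, and the other 3 tetraploid libraries lay within the range of the diploid ones. The means were 98.2 ± 32.4% in ML4x WD and 119.4 ± 16.5% in ML2x WD (SD, n = 4), a difference of -21.3 points that was smaller than the spread in ML4x WD. Without ML4x WD 1, on the same axis and scaling, the tetraploid mean was 113.5 ± 12.7% (n = 3) and the difference -5.91 points. Irrigated roots scored 5.94 ± 6.28% in ML4x and -8.15 ± 9.69% in ML2x (SD, n = 3).

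**Figure D2:**
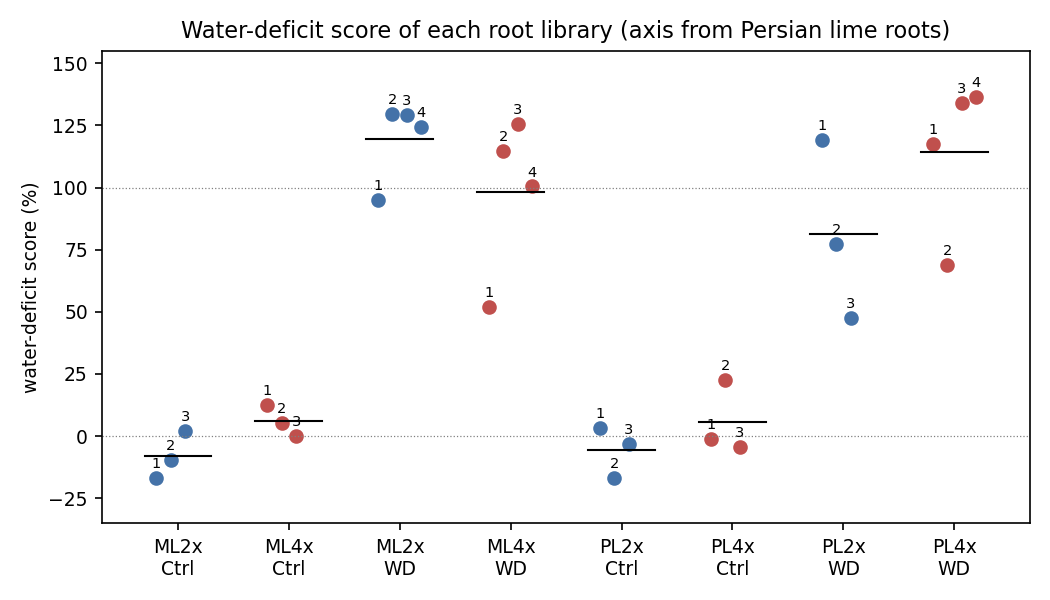
Water-deficit score (%) of each of the 27 root libraries by group, numbered by replicate, with group means as black lines and dotted lines at 0% and 100%. ML4x WD 1 stands at 52%, below the other 7 droughted Mexican lime libraries, which lie between 95% and 129.4%.

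Split by direction, the score of ML4x WD 1 was low on both sides. On the genes that rose it was 51%, against 92 to 123.2% in ML4x WD 2 to 4 and 88.8 to 123.7% in ML2x WD. On the genes that fell it was 52.5%, against 103.9 to 126.7% and 94.2 to 138.9%. The shallow library ML2x WD 4 had the lowest score of its group on rising genes and the highest on falling ones.

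The same library appears gene by gene. Relative to irrigated Mexican lime roots, the genes that fell in Persian lime were lower by a median of -0.54 on the log2 scale in ML4x WD 1, and by -1.37, -1.53 and -1.2 in ML4x WD 2 to 4. In ML2x WD 1 to 4 the medians were -1.11, -1.64, -1.61 and -1.82. ML4x WD 1 held the highest level of the 8 libraries for 61.5% of these genes, against 23.9% of all genes tested. It held the lowest level for 50% of the genes that rose, against 16.5% of all genes. ML2x WD 1 was the least changed of the diploid libraries on falling genes.

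**Figure D3:**
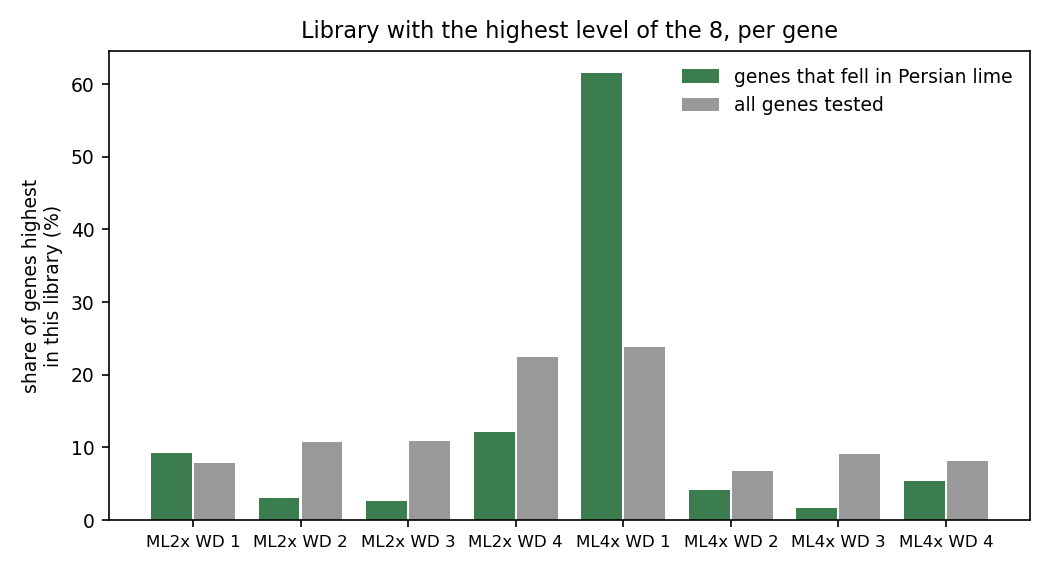
Share of genes (%) whose highest level among the 8 droughted Mexican lime root libraries was in the library named on the horizontal axis, for the 3261 genes that fell in Persian lime roots and for all 20452 genes tested. ML4x WD 1 held the highest level for 61.5% of the first and 23.9% of the second.

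Refitting without ML4x WD 1 brought the medians close to 0. The genes that fell in Persian lime then had a median of 0.05 in the contrast and those that rose a median of -0.02, with the lists drawn again in that fit. With the lists as first drawn, 52.8% of the genes that fell and 46.9% of those that rose were higher in ML4x WD, against 51.4% of all genes. The genes with an unadjusted p under 0.05 then numbered 1427, 705 higher and 722 lower. No gene passed edgeR's adjusted test in this fit, and the 4 genes called with all libraries had adjusted p from 0.0779 to 0.199 while their log2 fold changes were 1.21 to 5.78. The median of the falling genes was 0.74 without ML2x WD 1 and at 0.37 without the shallow ML2x WD 4.

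**Figure D4:**
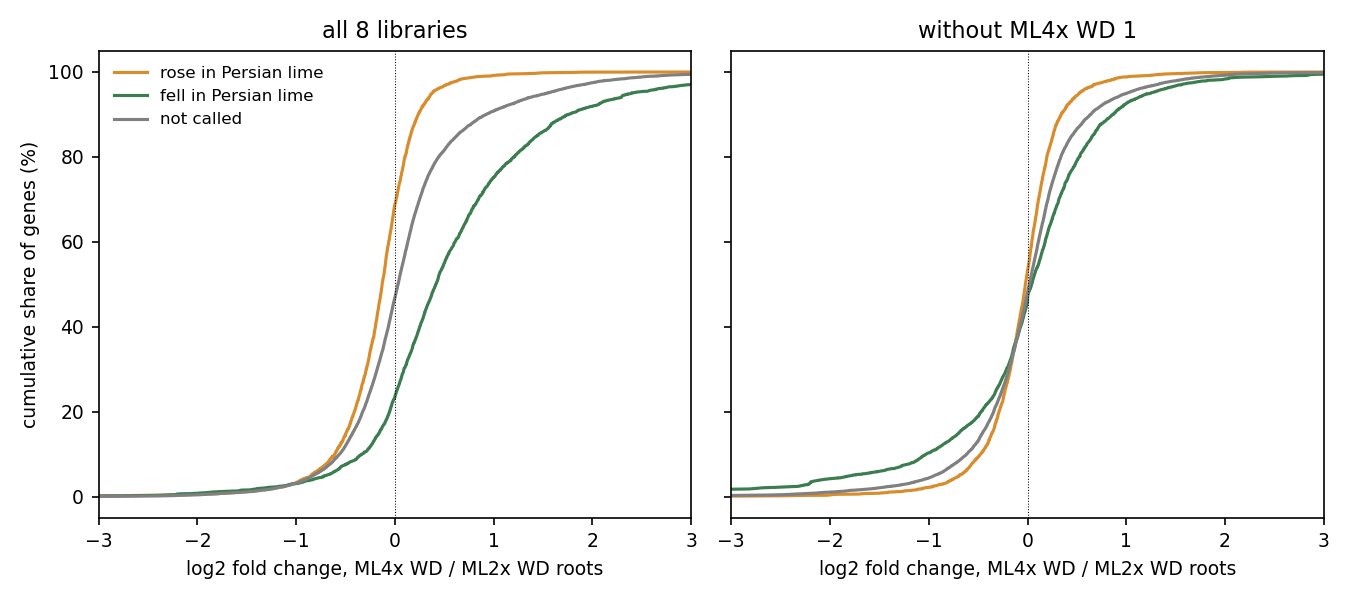
Cumulative share of genes (%) by log2 fold change of ML4x WD over ML2x WD roots, for genes that rose, fell or were not called in the mean response of Persian lime roots, with all 8 libraries (left) and without ML4x WD 1 (right). The curve of the genes that fell is displaced to the right on the left panel, with a median of 0.42, and its median is near 0 on the right panel.

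Among droughted Persian lime roots the drought lists leaned in the opposite order, while the called genes had the same sign. Ciclev10000483m.g was at 17.3 ± 6.32 CPM in PL4x WD (n = 4) and 7.65 ± 1.95 CPM in PL2x WD (SD, n = 3), a log2 fold change of 1.18 ± 0.33 (SE) that edgeR did not call (adjusted p = 0.154) and that DESeq2 and voom did (0.0423 and 0.0407). The third and the fourth genes had log2 fold changes of 0.69 ± 0.24 and 0.65 ± 0.23 (edgeR adjusted p = 0.275 and 0.265), of which voom called the fourth (adjusted p = 0.00851). With the genes sorted by the mean response of Mexican lime roots, the 5098 that fell there had a median of -0.35 in PL4x WD against PL2x WD, and the 4162 that rose had a median of 0.21, against 0.01 for all genes. The scores of the single libraries overlapped, at 119, 77.2 and 47.4% in PL2x WD and 117.4, 68.7, 134 and 136.3% in PL4x WD. In Persian lime edgeR called 3 genes between the droughted rootstocks (0.0147%), 1 higher (0.00489%) and 2 lower (0.00978%). This count depended on the tool, as DESeq2 called 290 genes and voom 4146. By edgeR, leaving out PL4x WD 2 gave 579 calls and leaving out PL2x WD 3 gave 0. Leaving out PL2x WD 2, PL4x WD 1 or PL4x WD 3 gave 1. The difference of the ploidy contrast between the scions was called in no gene by edgeR (0 of 20452, 0%; 2327 at an unadjusted p under 0.05; 3 by DESeq2 and 2056 by voom). That count became 816 without PL4x WD 2, whose score of 68.7% was the lowest of PL4x WD. The fold changes of the 2 droughted ploidy contrasts, which have no library in common, had a Pearson r of -0.09 across genes.

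Most genes that separated the rootstocks in irrigated trees had the same sign in droughted trees, with smaller medians. Irrigated Mexican lime roots had 438 calls (2.14% of genes tested), 83 higher (0.406%) and 355 lower (1.74%) in ML4x. In droughted roots 65 of the 83 were again higher (78.3%, against 53.5% of all genes), with a median log2 fold change of 0.35 where it had been 1.78 in irrigated roots. This droughted median depended on the tool: it was 0.11 with the fit and the 241 higher genes of DESeq2, and 0.07 with the fit and the 716 of voom. Of the 355, 270 were again lower (76.1%, against 46.5%), with a median of -0.38 where it had been -2.17. With the fit and the 631 lower genes of DESeq2 the droughted median was -0.21. The irrigated medians are larger in part by construction, since the genes were chosen on those libraries. Of the 438, 1 gene was also called in droughted roots, Ciclev10020909m.g, and 15 of the 83 and 42 of the 355 differed there by more than 2-fold in the same direction. That is 18.1% and 11.8%, where 10.4% of all genes tested were over 2-fold higher and 3.17% over 2-fold lower. Leaving out ML2x Ctrl 1 lowered the irrigated count to 69, and leaving out ML4x Ctrl 1, ML4x Ctrl 3 or ML2x Ctrl 2 lowered it to 106, 232 or 284.

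In the median level of these genes both rootstocks stood closer together under drought. The genes were chosen for standing apart in the irrigated libraries, so a smaller gap in other libraries is in part expected from the choice. The 355 genes had a median level of 70.2 CPM in ML2x Ctrl and 14.8 CPM in ML4x Ctrl roots, and of 28.4 CPM in ML2x WD and 21.6 CPM in ML4x WD roots. The 83 genes had medians of 13.7 and 46.8 CPM in irrigated and 24.1 and 30.5 CPM in droughted roots, again ML2x before ML4x. Among the droughted libraries ML2x WD 1 held the highest level of the 8 for 56.3% of the 355 genes, against 7.91% of all genes tested. ML4x WD 4 held the lowest for 38.6%, against 6.31% of all genes. The shallow ML2x WD 4 held the lowest for 38.3%, close to its 40.4% of all genes. Without ML2x WD 1 the median log2 fold change of the genes called lower in irrigated roots was -0.12, and without ML4x WD 4 it was -0.23. For the genes called higher, whose list changes with the irrigated libraries, it was 0.7 without ML2x Ctrl 1 and 0.64 without ML4x Ctrl 1. ML4x WD 4 held the highest level for 44.6% of the 83 genes, against 8.15% of all genes. Without ML4x WD 1 the median log2 fold changes of the genes called higher and lower in irrigated roots were 0.36 and -0.41.

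**Figure D5:**
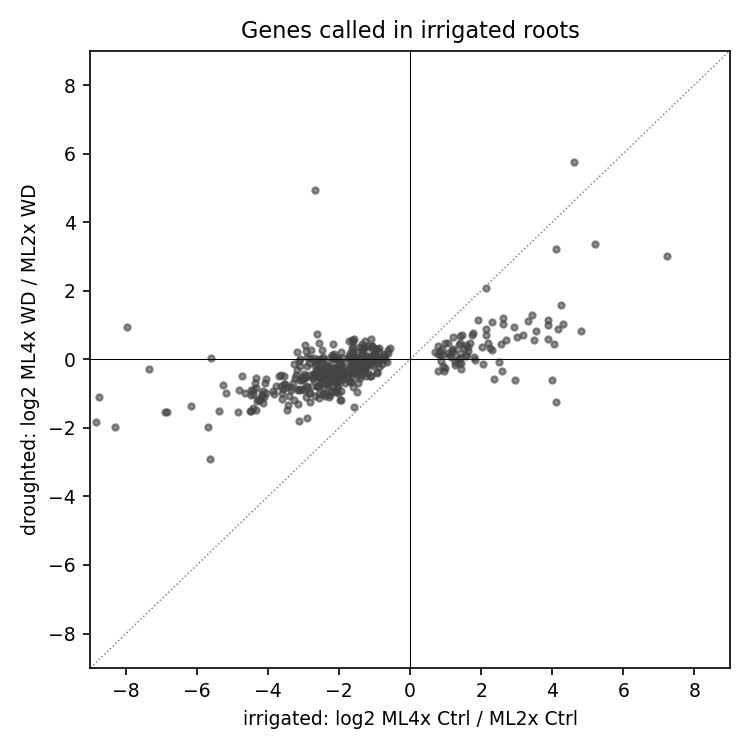
Log2 fold change between tetraploid and diploid roots in irrigated (horizontal) and droughted (vertical) Mexican lime trees, for the 438 genes called in irrigated roots, with the line of equal values dotted. Most points lie between that line and the horizontal axis; the medians of the 83 higher genes are 1.78 and 0.35 and those of the 355 lower genes -2.17 and -0.38.

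For the difference of the ploidy contrast between droughted and irrigated Mexican lime roots edgeR called no gene (0 of 20452, 0%; 2915 at an unadjusted p under 0.05). DESeq2 called 271 genes, 207 of them with the larger value under drought, and voom 58. Leaving out ML2x WD 1 gave 38 calls by edgeR, ML2x Ctrl 3 gave 24, ML4x WD 4 gave 8 and ML4x Ctrl 2 gave 1. Across all genes the droughted and irrigated contrasts had a Pearson r of -0.03.

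The 83 genes that DESeq2 called between the droughted rootstocks were spread over the drought classes, which hold 15.9% (fell), 15.2% (rose) and 68.8% (not called) of all genes tested. Of its 63 higher genes 13 had fallen in Persian lime (20.6%), 5 had risen (7.94%) and 45 had not been called (71.4%). Of its 20 lower genes 2 had fallen, 6 had risen and 12 had not been called. It gave no adjusted p to 798 genes.

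The numbers of detected genes overlapped between the groups at equal depth. With every library thinned to 1118899 counts, 17928 to 19053 genes were detected in ML4x WD and 16149 to 18566 in ML2x WD, the lowest being ML2x WD 4. That library was the shallowest and had 8.91% of its counts in the 10 genes most abundant over all root libraries, against 3.37 to 5.56% in the other 7. At full depth, each of the 4 ML4x WD libraries had counts, and all of ML2x WD had 0, for 10 genes, and 1 gene had the reverse. The reverse needs a count in the shallow ML2x WD 4 as well, so these 2 numbers cannot be compared with each other. A count of 0 over the group allows up to 0.0762 CPM in ML2x WD and 0.0419 CPM in ML4x WD (3 counts). The 10 genes averaged only 2.25 to 7.75 counts per tetraploid library, and each of them had counts in ML2x Ctrl and in PL2x WD roots, so all were detected on the diploid rootstock elsewhere.

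Precision followed the level of a gene. The median SE of the log2 fold change was 0.88 for the 2783 genes under 1 CPM, 0.44 for the 5857 genes from 1 to 10 CPM, 0.23 for the 9469 from 10 to 100 CPM and 0.23 for the 2343 over 100 CPM. Genes with an unadjusted p under 0.05 were 211 higher and 86 lower under 1 CPM, and 601 higher and 267 lower from 1 to 10 CPM. They were 647 higher and 682 lower from 10 to 100 CPM, and 109 higher and 161 lower over 100 CPM. With all 8 libraries the excess of higher genes thus lay under 10 CPM. Without ML4x WD 1 there was no such excess over all levels, with 705 genes higher and 722 lower, and the split by level was not made. Among genes averaging 10 CPM or more, the median SD over libraries was 0.4 log2 units in ML2x WD and 0.27 in ML4x WD. It was 0.22 in ML2x WD without ML2x WD 4 and 0.21 in ML4x WD without ML4x WD 1, against 0.2 and 0.24 in ML2x Ctrl and ML4x Ctrl.

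Leaves of these droughted trees gave no call between the rootstocks (0 of 19140 genes, 0%, by edgeR, and 1374 at an unadjusted p under 0.05, 502 higher and 872 lower). Other tools were not run on the leaf contrast. Of the 4 root genes, 4 were measured in leaves and 0 passed the test there. In ML4x WD and ML2x WD leaves Ciclev10000483m.g was at 0.786 and 1.39 CPM and the third gene at 0.438 and 0.444 CPM. Like Ciclev10020909m.g they were low in leaves, which limits what the test could find.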

How the data were processed

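Per the labels, RNA from roots was made into stranded mRNA libraries. The authors deposited whole-number read counts per gene, not normalised, and the submitters' processing notes name Trimmomatic and HTSeq. The aligner, genome build, versions and strand setting are not stated in the sources used here. Reads of citrumelo that differ from the reference, or that near-identical copies share, can be lost or assigned elsewhere.

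All 27 root libraries (8 groups) were fitted together in edgeR 4.0.16 (R 4.3.3): filterByExpr by group kept 20452 of 24533 genes, with TMM scaling, and glmQLFit and glmQLFTest were robust. The common biological coefficient of variation was 0.371. SE is the log2 fold change over the square root of F. The 26 leaf libraries were fitted likewise. Scores and correlations used log2(CPM + 0.5). DESeq2 1.42.0 and limma 3.58.1 were alternatives. The code was tested on simulated counts. In 12 pairs of libraries within groups the chi-square per gene was at least 18.6, so none was a duplicate.

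Identifiers named are the 2 highest and 2 lowest called fold changes, with a mean of at least 1 CPM and groups that do not overlap, and those also called in irrigated roots. None was lower. The samples and lists were chosen with earlier results of these data known. Gene lists by function and cell type markers could not be measured without gene names.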

Additional observations from a re-analysis of the deposited data

Results flagged for a closer look

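In 26 quantities of the ML2x WD and ML4x WD groups, a library standing far from the other 3 was looked for, and chance alone gives about 1 in 20. ML2x WD 1 was found in 3 quantities, of which the scores overlap and the gene level carries little weight. Its water-deficit score was 94.96%, where the other 3 libraries of ML2x WD lay between 124.4% and 129.4%. Its score on falling genes was 94.19%, against 131.7 to 138.9%. Its level of Ciclev10020909m.g was 0.1153 CPM, which is 2 counts, where the other 3 libraries had 0 counts, and any count beside 3 zeros would have been found. ML4x WD 1, with the lowest score, was not found in this way because ML4x WD is spread more widely.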

How the results depend on the processing

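The 4 calls between the droughted rootstocks depended on the method: 0 genes were called from the 8 libraries alone, 2 with no scaling beyond the library total, 83 by DESeq2, 7 by voom, and 4 with DESeq2's size factors in edgeR. Without both ML4x WD 1 and ML2x WD 4, an alternative chosen after seeing the data, 0 genes were called and the median of the genes that fell in Persian lime was 0.0518. Leaving out 1 library at a time gave 0 to 5 calls. It gave 69 to 498 calls in irrigated roots, 0 to 579 in droughted Persian lime roots, 0 to 38 for the difference between treatments and 0 to 816 for that between scions. The median of falling genes ranged from 0.0477 to 0.7384 and that of rising genes from -0.2211 to -0.0201. The medians of the genes higher and lower in irrigated tetraploid roots ranged from 0.2469 to 0.6952 and from -0.5308 to -0.1178, and the score difference from -30.97 to -6.447 points. In irrigated roots DESeq2 called 872 genes and voom 2052, in droughted Persian lime roots 290 and 4146, for the treatments 271 and 58, and for the scions 3 and 2056. With those tools' irrigated lists the median of the higher genes was 0.1147 and 0.0749. The lower genes had a median of -0.2132 with DESeq2's fit and list.

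The replicate numbers of ML2x WD and ML4x WD were also fitted as a replicate block, with no block among the Persian lime or irrigated libraries. That fit gave 1 call between the droughted Mexican lime rootstocks, 9 in droughted Persian lime roots and 37 for the difference between treatments. The Persian lime count is thus not a result of pairing there. Same-numbered libraries of the 2 groups had correlated deviations of 0.547, 0.0858, 0.3 and 0.0505, and 3 of the 4 ML4x WD libraries and 2 of the 4 ML2x WD libraries correlated best with their own number, which is a hint from the data and not the design. As not every pair was over 0.1 and no label ties the numbers to a shared batch, the libraries were treated as unpaired.

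No median of a gene list changed sign under any alternative run, and the score difference stayed negative with each library left out in turn. The balance of genes at an unadjusted p under 0.05 in edgeR did change. It was 1568 higher and 1196 lower with all libraries, and 705 higher and 722 lower without ML4x WD 1. The fold changes of the 4 called genes were positive in all 36 alternatives. The calls were kept in 26, 24, 27 and 25 of them, in the order described. Of the 36, 27 left out a single library, and only 8 of those libraries were in ML4x WD or ML2x WD. In these 27 fits the calls were lost 7, 7, 6 and 7 times, each time without a library of ML4x WD or ML2x WD. Most fits that kept a call thus left all 8 libraries of the contrast in place. The causes were not tested. ML2x WD 4, with 1118899 counts, limits what can be detected among weakly expressed genes.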
